A study of Mus musculus with 55 samples.

Results

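The adult haemoglobin chain genes Hba-a1, Hba-a2, Hbb-bs and Hbb-bt and the erythroid haem enzyme gene Alas2 were followed in RNA from the dorsal hippocampus of 55 mice. They are 5 of the 55487 genes with deposited counts and were taken by their symbols. They were picked with a lower level in diestrus already in view, so their differences between diestrus and any other group are given as a description with no test. All 5 passed the filter on low counts (counts scaled to library size as CPM, over 1 CPM in at least 10 libraries), as did 16168 genes in all. The levels below are CPM with library sizes scaled by TMM factors, which the filter did not use. Of the mice, 27 were wild type (WT) and 28 were of a Cnih3 knock-out (KO) line that lacks an exon of Cnih3, an auxiliary subunit of AMPA receptors, both on a C57/BL6j background. Females in metestrus numbered 4 WT and 5 KO, those in diestrus 6 of each genotype, those in proestrus 5 WT and 4 KO, and those in estrus 7 WT and 6 KO, beside 5 WT and 7 KO males. The labels name no agent for any group. The stage was read from vaginal cytology at collection. The mice were decapitated and the hippocampus was dissected over ice, and the sources used here name no perfusion, so blood of the vessels could be part of each sample.

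Library totals ranged from 25881295 to 63547098 counts, with a median of 53384170. Ages ranged from 10.9 to 23.7 weeks, and 7 of the 12 diestrus mice, 9 of the 31 females of other stages and 1 of the 12 males were under 14 weeks. All 12 genes of the hippocampal neuron list passed the filter, with a summed level between 6980 and 12000 CPM in every mouse. The list includes Snap25 (mean 5720 CPM), a gene of neurons in general, so the sum does not identify the region. Cnih3 had a median of 31 CPM in KO (21.6 to 47.8) and of 39.5 CPM in WT mice (21.6 to 62.5), and since the line lacks only part of the gene these counts over the whole gene do not check the labels. Each library came from a separate mouse.

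Haemoglobin is the oxygen carrier of red blood cells and pairs alpha chains, encoded by the Hba genes, with beta chains, encoded by the Hbb genes. Each chain holds a haem group, and Alas2 makes the erythroid form of the first and rate-limiting enzyme of haem synthesis, while other cells use Alas1. Red blood cells of mice have no nucleus, but young ones that have just entered the blood still hold globin mRNA. Whole brain tissue therefore holds globin mRNA from the blood in its vessels, and low haemoglobin expression has also been described in neurons and glia.

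The promoters are shown as a description of the genes. The 4 chain genes lie in 2 clusters on different chromosomes and followed each other closely from mouse to mouse. Any part of the promoters in this was not tested. Each line gives the 130 bases before the RefSeq start of the gene (RefSeq, GRCm38.p6), read 5′ to 3′ on the gene's strand. Capitals mark 4 motifs on either strand. These are a TATA-type box with the letters ATATAA, the box named CCAAT after its letters, the CACCC motif bound by factors such as Klf1, and GATA, the core letters bound by factors such as Gata1. Adjacent or overlapping matches run together (CCAAT and its reverse ATTGG in Hbb-bt, and 3 matches in Alas2).
Hba-a1 (chr11:32283542-32283671, plus strand): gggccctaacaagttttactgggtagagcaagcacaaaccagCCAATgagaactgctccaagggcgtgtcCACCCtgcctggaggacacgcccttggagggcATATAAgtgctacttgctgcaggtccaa
Hbb-bs (chr7:103827929-103828058, minus strand): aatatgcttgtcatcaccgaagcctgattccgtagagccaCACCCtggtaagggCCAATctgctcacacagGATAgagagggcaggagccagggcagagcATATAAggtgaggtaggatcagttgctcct
Hbb-bt (chr7:103813924-103814053, minus strand): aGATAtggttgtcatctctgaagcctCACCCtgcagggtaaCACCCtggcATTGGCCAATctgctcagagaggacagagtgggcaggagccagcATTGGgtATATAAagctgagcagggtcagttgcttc
Alas2 (chrX:150547287-150547416, plus strand): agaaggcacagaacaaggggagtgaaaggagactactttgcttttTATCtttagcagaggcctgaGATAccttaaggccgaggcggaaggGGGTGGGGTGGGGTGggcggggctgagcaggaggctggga

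The window of Hba-a2 (chr11:32296362-32296491, plus strand) is not shown, since it matched that of Hba-a1 at 247 of 247 bases over the 250 bases before the start, once shifted by 3 bases. Within those 250 bases all 4 chain genes held all 4 motifs, and the ATATAA of Hbb-bs began 30 bases before its start, that of Hbb-bt 29, that of Hba-a1 28 and that of Hba-a2 31. Alas2 held 3 matches to CACCC and 2 to GATA, with no ATATAA or CCAAT in this window. The GATA of both alpha genes lies upstream of the printed bases. Of 32851 mouse promoters of the same length, 9.1% held ATATAA, 33.8% CCAAT, 52% CACCC and 53.6% GATA on either strand, and 1.02% held all 4. A match is a description of letters and no evidence of binding.

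Hba-a1 (ENSMUSG00000069919) lies at chr11:32283511-32284465 and Hba-a2 (ENSMUSG00000069917) at chr11:32296489-32297298, both on the plus strand of GRCm38 with 3 exons in GENCODE. Hbb-bs (ENSMUSG00000052305) lies at chr7:103826534-103828096 and Hbb-bt (ENSMUSG00000073940) at chr7:103812524-103813996, both on the minus strand with 3 exons. Alas2 (ENSMUSG00000025270) lies at chrX:150547375-150570638 on the plus strand, with 11 exons in its longest transcript. GENCODE starts these genes upstream of the RefSeq starts used for the promoters. The whole printed windows of Hba-a1 and Hbb-bs, and the last part of those of Hbb-bt and Alas2, lie within the GENCODE genes. These bases can fall in a GENCODE first exon.

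Each pair of chain genes is a near-identical pair, which limits how far its members can be told apart. The coding sequences of Hba-a1 and Hba-a2 differed at 1 of 429 bases, and those of Hbb-bs and Hbb-bt at 1 of 444. Of all stretches of 150 bases, the length of a read, 48.4% of those in the main Hba-a1 transcript also occurred in that of Hba-a2 and 65.7% the other way round, while 58.7% of those of Hbb-bs occurred in Hbb-bt and 50.7% the other way round. The deposited counts hold uniquely aligned reads, so reads that fit both genes equally are missing from both and the split within a pair is uncertain. Reads were sequenced in pairs, and a mate outside a shared stretch can place its read, so these percentages are not the share of reads lost. Estimated transcript counts, which share such reads out, had a median of 1.03 times the unique count for Hba-a1, 1.11 times for Hba-a2, 0.744 times for Hbb-bs and 0.582 times for Hbb-bt. Why those of the Hbb genes were below the unique counts was not tested. On the log2 scale both kinds of count correlated at r = 0.991, 0.991, 0.993 and 0.99 over the 55 mice for these genes in that order, so the order of the mice hardly depended on the way of counting. The full-length Alas2 transcript was not analysed here.

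Per kilobase of exon, the median level over the 55 mice was highest for Hbb-bs (188 CPM per kilobase), followed by Hba-a1 (102), Hba-a2 (80.1), Hbb-bt (54.9) and Alas2 (2.48). The chain genes were thus well above the erythroid enzyme gene on this scale. Together the 5 genes took between 0.0142% and 0.118% of all counts of a library, with a median of 0.0308%. In diestrus mice the median share was 0.0202% (0.0142% to 0.0393%), in females of other stages 0.0308% (0.0147% to 0.118%) and in males 0.0374% (0.0191% to 0.0475%). In bulk tissue fewer cells of a type and less RNA per cell cannot be told apart.

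Hbb-bs, the more abundant beta chain gene, differed 8.11-fold between the lowest and the highest mouse. In WT metestrus the 4 mice had 70.4, 113, 138 and 141 CPM. In the 6 WT diestrus mice the lowest was 68.4, the median 104 and the highest 176 CPM. The WT metestrus and diestrus mice covered nearly the same range. In WT proestrus the 5 mice had 122, 138, 152, 220 and 307 CPM. In the 7 WT estrus mice the lowest was 110, the median 160 and the highest 555 CPM. The highest of these, mouse 3_2, stood far above all other mice of the study. The 5 WT males lay close together at 151, 173, 189, 198 and 219 CPM.

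In KO mice metestrus was not among the low groups. The 5 KO metestrus mice had 122, 171, 203, 209 and 216 CPM of Hbb-bs. In the 6 KO diestrus mice the lowest was 78, the median 99.6 and the highest 182 CPM. All but mouse 2592 of this group were at or below 107 CPM, under every KO metestrus mouse. The 4 KO proestrus mice had 133, 135, 226 and 237 CPM. The 6 KO estrus mice ranged from 73.3 to 150 CPM with a median of 140, and the 7 KO males ranged from 89 to 223 CPM with a median of 177. KO estrus overlapped KO diestrus, and KO proestrus and metestrus overlapped the males.

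**Figure D1:**
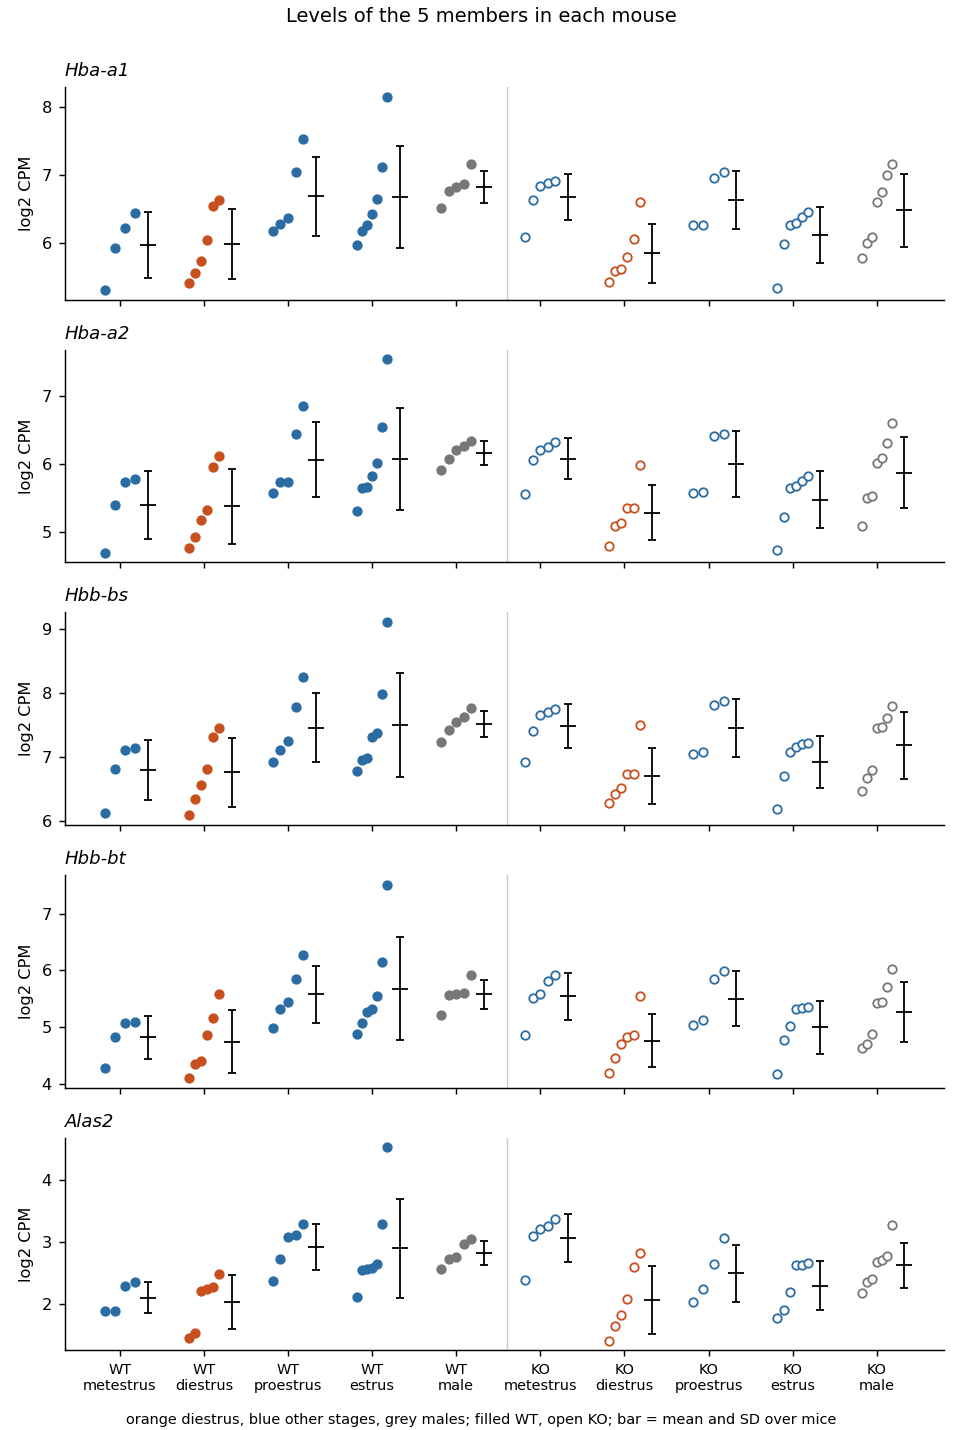
Level of each member (log2 CPM, vertical axes) in every mouse of the 10 groups (horizontal axis), with orange for diestrus, blue for other stages and grey for males, filled for WT and open for KO, and the mean and SD of each group beside the points. WT metestrus sat as low as WT diestrus for all 5 genes, while KO metestrus was among the higher groups, and WT estrus mouse 3_2 was the highest point in every panel.

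By mean log2 CPM, the order of the groups for Hbb-bs ran from WT male (7.53 ± 0.20, SD, n = 5), WT estrus (7.51 ± 0.81, n = 7), KO metestrus (7.49 ± 0.34, n = 5), WT proestrus (7.47 ± 0.55, n = 5) and KO proestrus (7.46 ± 0.45, n = 4) to KO male (7.19 ± 0.52, n = 7), KO estrus (6.93 ± 0.41, n = 6), WT metestrus (6.80 ± 0.47, n = 4), WT diestrus (6.77 ± 0.54, n = 6) and KO diestrus (6.71 ± 0.43, n = 6). No group differed from its neighbour in this order by more than 0.27, which is within the SD of a group other than WT males. The last 4 groups were the same for all 5 genes, although not in the same order. Groups accounted for 33.1% of the variance of Hbb-bs between mice and for 34.6% to 42.9% of that of the other genes.

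Hba-a1 and Hba-a2, the alpha chain genes, repeated this order closely. Hba-a1 had a median of 54.2 CPM in diestrus (42.6 to 98.7), 82.7 CPM in the other stages (39.5 to 284) and 108 CPM in males (54.5 to 143). Hba-a2 had 38 CPM in diestrus (27 to 69.3), 53.4 in the other stages (25.8 to 188) and 67.5 in males (33.9 to 97.7). All 12 diestrus mice were below the male median for Hba-a1, and 11 of 12 for Hba-a2, but no diestrus mouse was below every female of the other stages.

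Hbb-bt, the less abundant beta chain gene, had a median of 27.2 CPM in diestrus (17.2 to 48.1), 39.9 CPM in the other stages (18 to 183) and 45.4 CPM in males (24.7 to 65). It had the widest range of the 5 genes, 10.6-fold. Of the 12 diestrus mice, 10 were below the median of the other stages, compared with 9 for Hbb-bs, Hba-a1 and Hba-a2 and 11 for Alas2.

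Alas2 had between 138 and 1153 counts per library, so its values are less precise than those of the chain genes. In WT metestrus the 4 mice had 3.7, 3.71, 4.89 and 5.12 CPM. In the 6 WT diestrus mice it ran from 2.73 through a median of 4.68 to 5.61 CPM. In WT proestrus the mice had 5.19, 6.64, 8.49, 8.72 and 9.83 CPM, and all but the lowest of them were above every WT metestrus and diestrus mouse. The 7 WT estrus mice ran from 4.32 through a median of 5.97 to 23.2 CPM, and the 5 WT males had 5.96, 6.63, 6.79, 7.87 and 8.31 CPM. All WT males were above all WT diestrus and metestrus mice. The 5 KO metestrus mice had 5.26, 8.6, 9.31, 9.6 and 10.4 CPM. The 6 KO diestrus mice ran from 2.65 through 3.88 to 7.06 CPM. KO metestrus was the group with the highest mean for Alas2 (log2 CPM 3.07 ± 0.39), and 4 of its 5 mice were above every KO diestrus mouse. The 4 KO proestrus mice had 4.11, 4.71, 6.3 and 8.38 CPM, the 6 KO estrus mice ran from 3.43 through 5.38 to 6.34 CPM and the 7 KO males from 4.52 through 6.42 to 9.75 CPM.

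The differences were read from a limma model of all 55 mice, and each log2 fold change is the first group minus the second. Averaged over both genotypes, the members were lower in diestrus than in the other stages by a similar amount. The log2 fold change was -0.59 ± 0.16 (SE) for Hbb-bs, -0.59 ± 0.16 for Hba-a1, -0.58 ± 0.16 for Hba-a2, -0.67 ± 0.19 for Hbb-bt and -0.67 ± 0.19 for Alas2. Since the genes were chosen with this difference in view, these are descriptions. A false discovery rate (FDR) under 0.05 was reached by 48.3% of all genes in this comparison, 26.9% lower and 21.4% higher in diestrus, and nothing is read from the members' own. The median of all genes was -0.01, and between 5.25% and 7.29% of genes had a lower log2 fold change than a member.

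In WT mice alone the differences were between -0.76 ± 0.29 (Alas2) and -0.49 ± 0.25 (Hba-a1), where 19.2% of genes had an FDR under 0.05. In KO mice alone they were between -0.69 ± 0.21 (Hba-a1) and -0.58 ± 0.23 (Alas2), where the percentage was 36.4%. Against males the averages over both genotypes were between -0.70 ± 0.20 (Hba-a1) and -0.59 ± 0.20 (Hbb-bs), in a comparison where 28.2% of genes had an FDR under 0.05 (18.1% lower and 10% higher in diestrus). The same differences were between -0.87 ± 0.37 (Hbb-bt) and -0.77 ± 0.33 (Hbb-bs) in WT mice (0.068% of genes) and between -0.55 ± 0.23 (Hba-a1) and -0.39 ± 0.27 (Hbb-bt) in KO mice (28.7% of genes). These comparisons share the diestrus mice. Males were older, and with age as a term the differences from males were between -0.53 and -0.38 over both genotypes, between -0.69 and -0.58 in WT mice and between -0.37 and -0.15 in KO mice. Without WT diestrus mouse 548 that of Hbb-bs in WT mice was -0.40.

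A few mice weighed on the diestrus difference. Without WT diestrus mouse 548, the lowest for Hbb-bs, the WT difference of Hbb-bs was -0.16 in place of -0.52, and without WT diestrus mouse 8_1 it was -0.71. Over both genotypes, the median difference of the members lay between -0.69 and -0.41 when any 1 of the 55 mice was left out, and it was -0.56 without WT estrus mouse 3_2. The quality weights are estimated anew in each fit, and without both these weights and mouse 548 the WT difference of Hbb-bs was -0.34. With only the diestrus mice under 14 weeks the median was -0.72, and with only those of 14 weeks or more it was -0.29. Of the 16168 genes, 10086 had an FDR under 0.05 in the first of these fits and 0 in the second. With all diestrus mice the number was 7806 in the main limma fit, 2963 by edgeR and 3620 in limma without quality weights. The 7 younger diestrus mice (532, 548, 549, 569, 643, 644 and 645) are also the only mice of the study numbered in this way, so within diestrus their age and whatever this number series marks cannot be told apart. With age as a term in the model of all mice the median was -0.51.

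Whether the KO changed the diestrus difference was tested as an interaction, and 0 of the 5 members passed (limma, 0 with an unadjusted p under 0.05, and 0 by edgeR or DESeq2). The KO difference minus the WT difference was between -0.20 ± 0.32 (Hba-a1) and 0.18 ± 0.37 (Alas2), with FDR values of at least 0.99. Without WT diestrus mouse 548 it was between -0.55 and -0.09 (lowest limma FDR 0.389), and -0.49 for Hbb-bs. Of all genes, 0% passed and 3.66% had an unadjusted p under 0.05 in limma. The SEs of 0.32 to 0.37 set the size of a genotype difference that could have been seen here.

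Females outside diestrus did not differ detectably from males in these genes. None of the 15 tests of the 5 members in WT, KO and both genotypes passed by limma (0 at an unadjusted p under 0.05, and 0 by edgeR or DESeq2). Of all genes, 2.56% in WT, 18.8% in KO and 13.7% over both genotypes had such a p in limma. Over both genotypes, the mean of metestrus, proestrus and estrus minus males was -0.01 ± 0.17 for Hbb-bs, -0.10 ± 0.16 for Hba-a1 and Hba-a2, 0.04 ± 0.18 for Hbb-bt and -0.02 ± 0.17 for Alas2 (lowest limma FDR 0.821), where 0.47% of all genes passed. The WT differences were between -0.35 ± 0.26 and -0.10 ± 0.27 (0.0371% of genes passed) and the KO differences between 0.06 ± 0.20 and 0.26 ± 0.21 (2.09% of genes passed).

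Metestrus, proestrus and estrus were compared in pairs within each genotype. In WT mice the members were lower in metestrus than in estrus by 0.64 to 0.81 on the log2 scale, with unadjusted p of 0.0045 to 0.0111 in limma, but the FDR was 0.995 for each and 0% of all genes passed. Without WT estrus mouse 3_2 the differences were between -0.53 and -0.42. They were lower in WT metestrus than in WT proestrus by 0.54 (Hbb-bs) to 0.84 (Alas2), with FDR values of 0.176 to 0.403, where 0.767% of genes passed. WT proestrus minus estrus was between -0.14 and 0.11, where 6.82% of genes passed. In KO mice metestrus minus estrus had the opposite sign, 0.44 to 0.63 (lowest FDR 0.586, 0% of genes passed). KO metestrus minus proestrus was 0.55 for Alas2 and between 0.03 and 0.08 for the chain genes (4.37% of genes passed). KO proestrus minus estrus was 0.08 for Alas2 and between 0.39 and 0.44 for the chain genes (0.507% of genes passed). In all, 0 of these 30 member tests passed by limma, edgeR or DESeq2, while 10 had an unadjusted p under 0.05 in limma. These 10 came from WT metestrus minus proestrus, WT metestrus minus estrus and KO metestrus minus estrus. Such a p was reached there by 13.4%, 4.36% and 8.45% of all genes, and by 19% to 23.4% in the other pairs. The members followed each other from mouse to mouse, so their tests are not separate evidence.

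KO and WT mice were compared within each condition and as the mean of the 5 conditions. As a mean the members were between -0.10 ± 0.12 (Hba-a1 and Hba-a2) and -0.03 ± 0.13 (Alas2) on the log2 scale, with limma FDR values of at least 0.739, where 3.4% of genes passed (1.5% higher and 1.9% lower in KO). Conditions differed in sign. In metestrus the KO mice were higher by 0.61 ± 0.27 (Hbb-bs and Hba-a2), 0.62 ± 0.27 (Hba-a1), 0.66 ± 0.30 (Hbb-bt) and 0.88 ± 0.29 (Alas2), with FDR values of 0.326 to 0.519, where 0.0247% of genes passed. In estrus the KO mice had values lower by 0.48 to 0.60, with FDR values of 0.352 to 0.456, where 0.179% of genes passed. Without WT estrus mouse 3_2 the estrus differences were between -0.34 and -0.25, and without the WT metestrus mouse lowest for Hbb-bs (70.4 CPM) the metestrus differences were between 0.40 and 0.84. In diestrus the differences were between -0.16 and 0.14 (0% of genes passed), and without WT diestrus mouse 548 between -0.51 and -0.13. In proestrus they were -0.50 for Alas2 and between -0.05 and 0.03 for the chain genes (0.315% of genes passed). In males they were between -0.45 and -0.20 (0.00619%). None of the 30 member tests passed by limma, edgeR or DESeq2, and 9 had an unadjusted p under 0.05 in limma. Those 9 came from metestrus and estrus, where 9.01% and 11.7% of all genes had such a p. In the other comparisons of KO with WT this share was 5.23% to 17.1%. The tests of the members are not separate evidence, since the members followed each other from mouse to mouse.

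The change of sign between metestrus and estrus was put to a test of its own after the values had been seen. The KO minus WT difference in metestrus exceeded that in estrus by 1.14 ± 0.37 for Hbb-bs and by 1.36 ± 0.38 for Alas2, and the other members lay between (unadjusted limma p of 0.000819 to 0.0032). Hba-a1 had 1.11 ± 0.36, the smallest value. The FDR was 1 for each member and 0% of all genes passed, so the difference is reported as not passing the correction. Without WT estrus mouse 3_2 the values were between 0.92 and 1.15, and without the WT metestrus mouse lowest for Hbb-bs (70.4 CPM) between 0.92 and 1.32.

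**Figure D2:**
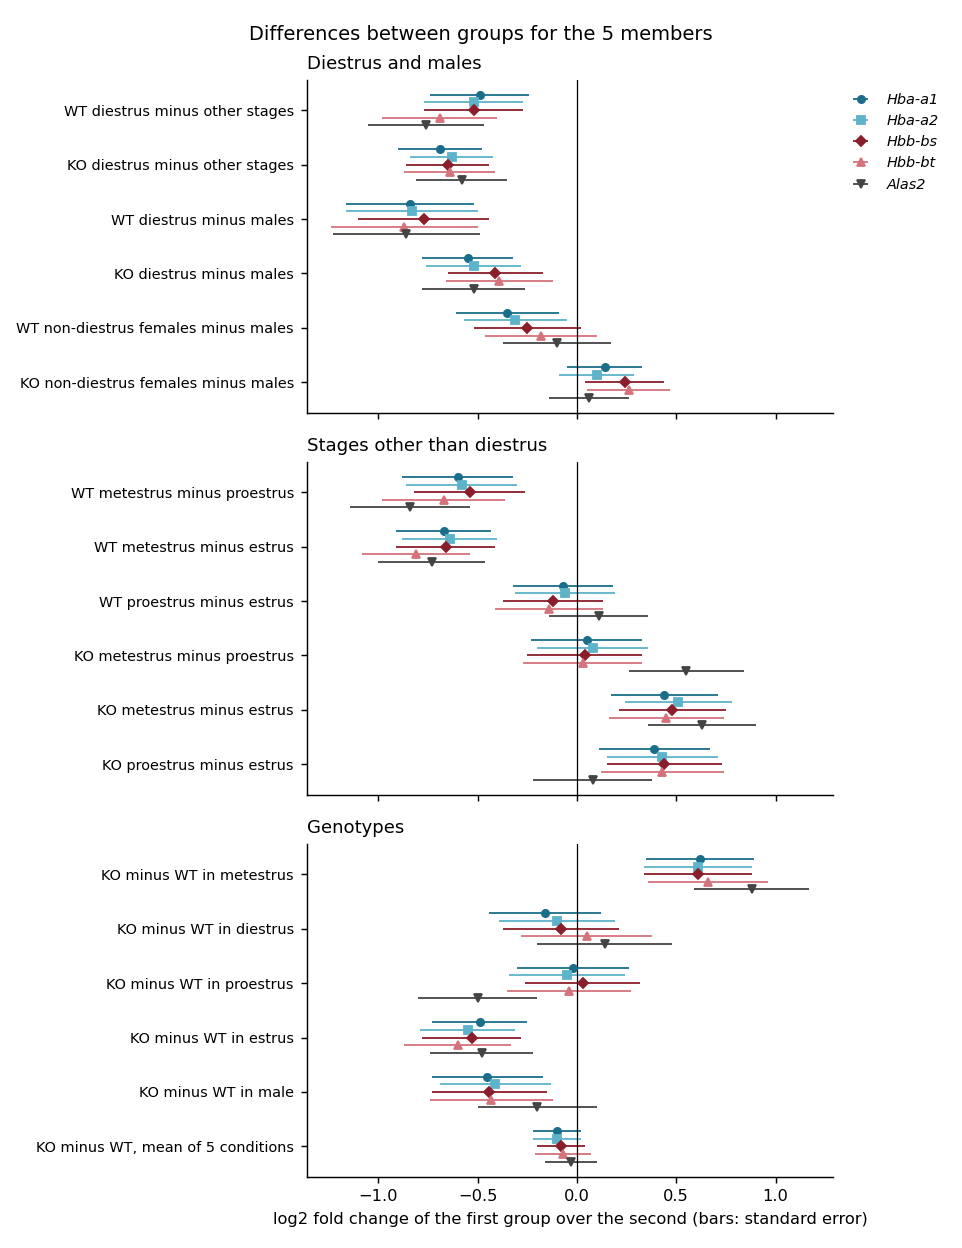
Log2 fold changes of the 5 members (horizontal axis, bars are standard errors) for diestrus and male comparisons, stage pairs without diestrus, and KO against WT (vertical axis, the first group minus the second). The members moved together in nearly every comparison, and the sign of KO minus WT was positive in metestrus (0.61 to 0.88) and negative in estrus (-0.60 to -0.48).

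The 4 chain genes rose and fell together from mouse to mouse. With the group means removed, Hbb-bs correlated with Hba-a1 at r = 0.989 (rho = 0.982) and with Hba-a2 at r = 0.99 (rho = 0.988) over the 55 mice. The 6 pairs of chain genes had r between 0.972 and 0.99. Alas2 followed less closely, with r between 0.702 (Hba-a2, rho = 0.626) and 0.787 (Hbb-bt, rho = 0.706). Each of the 10 pairs of members had a permutation p for r of 1e-05, the smallest that 100000 resamples can give (adjusted p = 1e-05), and for rho of at most 3e-05. Without the 2 mice farthest from the median, r was at least 0.967 for the chain pairs and between 0.633 and 0.704 for Alas2, so the relations do not rest on those mice. Counts of both members of a pair come from the same library and share its depth.

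**Figure D3:**
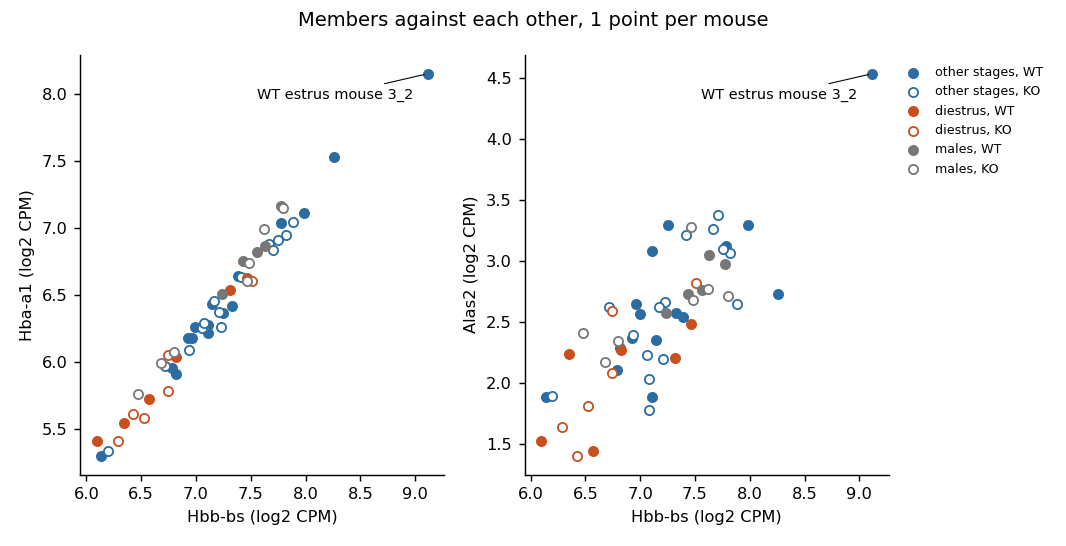
Hba-a1 (left, log2 CPM) and Alas2 (right, log2 CPM) against Hbb-bs (log2 CPM), 1 point per mouse, with the colours and fills of the groups. Hba-a1 lay along a line over the whole range (r = 0.989 with group means removed), while Alas2 scattered more widely (r = 0.744), and WT estrus mouse 3_2 was highest in both.

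The proportions between the chains were nearly constant. The unique counts gave a median of 1.53 Hba-a1 per Hba-a2 (1.36 to 1.76 over the 55 mice), 3.83 Hbb-bs per Hbb-bt (3.04 to 4.48) and 0.757 alpha per beta (0.64 to 0.855). The count of Alas2 per beta count varied more, with a median of 0.0314 and a range of 0.0173 to 0.0501. Mouse 3_2 had the lowest ratio of Hbb-bs to Hbb-bt (3.04) and the lowest ratio of alpha to beta (0.64) of all mice. With transcript counts the medians were 1.41 Hba-a1 per Hba-a2, 4.94 Hbb-bs per Hbb-bt and 1.13 alpha per beta, so the sizes of these ratios depend on the way of counting.

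None of 16 permutation tests on the log2 ratios passed after adjustment. Between the 12 diestrus mice and the 31 females of other stages, Hbb-bs per Hbb-bt was 3.95 and 3.78, a log2 difference of 0.066 (permutation p = 0.0867, adjusted p = 0.517). In WT mice alone the difference was 0.138 (exact p = 0.0237, adjusted p = 0.379). Hba-a1 per Hba-a2 differed by -0.022 (p = 0.35), alpha per beta by 0.020 (p = 0.421) and Alas2 per beta by -0.047 (p = 0.701), each with an adjusted p of 0.834 in the permutation test. KO and WT mice differed by at most 0.033 in any of the 4 log2 ratios (lowest permutation p = 0.657, adjusted p = 0.834). The SD of the log2 ratio over all mice was between 0.07 and 0.11 for the chain ratios and 0.34 for Alas2 per beta, which sets the size of a shift that could be seen.

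Age was compared within diestrus and outside it. The 7 diestrus mice under 14 weeks had a mean log2 CPM of Hbb-bs of 6.54 ± 0.27, and the 5 of 14 weeks or more had 7.01 ± 0.58. The difference was -0.47 (two-sided exact permutation p = 0.0909), and those of the other members were between -0.49 (Hba-a2, exact p = 0.0732) and -0.32 (Alas2, exact p = 0.273), with adjusted p values of at least 0.152 over the 5 tests. The sign was negative in both genotypes for each member. Over the 43 mice outside diestrus, Hbb-bs had r = 0.0869 with age (permutation p = 0.581, adjusted p = 0.623, and rho = 0.0294, adjusted p = 0.994), and no member had r above 0.156. For Hbb-bs r was 0.0457 once the 2 mice of most extreme age were left out.

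**Figure D4:**
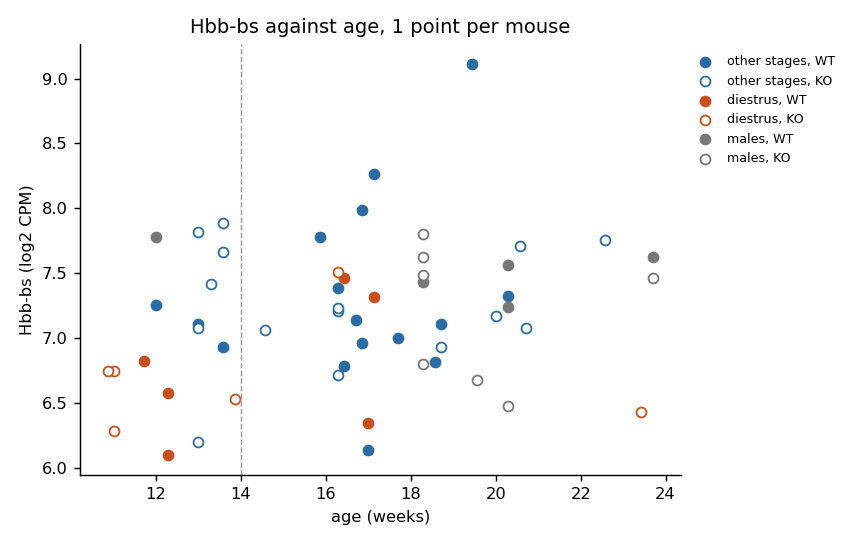
Hbb-bs (log2 CPM, vertical axis) against age in weeks (horizontal axis), 1 point per mouse, with a dashed line at 14 weeks. The 7 diestrus mice under 14 weeks lay at the lower end (mean 6.54), while females of other stages and males of the same ages were above them except for 1 KO estrus mouse (73.3 CPM).

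The wider haem and iron pathways are given by their counts, beside 21.4% of all genes higher and 26.9% lower in diestrus. The diestrus calls of these and the following lists come from the fit with all 12 diestrus mice. With only the 5 of 14 weeks or more, 0 of 16168 genes passed against the other stages. Of 9 other globin genes, the embryonic genes Hba-x, Hbb-y, Hbb-bh1 and Hbb-bh2 had mean levels of 0.00102 to 0.0409 CPM and did not pass the filter. Neuroglobin (Ngb), an oxygen-binding protein of neurons, rose in diestrus against the other stages by 0.49 ± 0.16 (limma FDR 0.0112), and cytoglobin (Cygb) had -0.07 ± 0.06 (FDR 0.344). Of 8 enzymes of haem synthesis, 4 were higher and 1 lower in diestrus. Alas1, the enzyme that cells other than erythroid ones use in place of Alas2, rose by 0.33 ± 0.06 (FDR 2.43e-05), and Cpox fell by 0.47 ± 0.06 on the log2 scale (FDR 7.14e-08). The median of the list was 0.09, compared with -0.01 over all genes.

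Among 5 measured genes of haem breakdown and export, 3 rose and 1 fell in diestrus, again beside 21.4% and 26.9% of all genes. Haem oxygenase Hmox2 rose by 0.23 ± 0.06 (FDR 0.00075), the haem exporter gene Flvcr1 fell by 0.72 ± 0.12 (FDR 4.08e-06), and the inducible haem oxygenase Hmox1 had -0.02 ± 0.08 (FDR 0.824). Of 4 genes of haemoglobin scavenging only Lrp1, a receptor for haem bound to haemopexin, passed the filter, and it fell by 0.62 ± 0.09 (FDR 1.64e-07). Of 10 genes of iron handling 4 fell and 1 rose. The transferrin gene Trf fell by 1.12 ± 0.13 (FDR 5.64e-09), the transferrin receptor gene Tfrc fell by 0.41 ± 0.08 (FDR 6.84e-05), and the ferritin gene Fth1 had 0.12 ± 0.06 (FDR 0.0701). Trf is also a gene of mature oligodendrocytes.

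Markers of whole red cells and of other blood cells were mostly too low to test. Of 31 erythroid genes 17 passed the filter, and these include many that brain cells express, such as Car2 at a mean of 542 CPM. Of the 17, 5 rose and 5 fell in diestrus (21.4% and 26.9% of all genes), with a median of 0.01. The red cell membrane gene Slc4a1 had a mean of 0.259 CPM and the erythroid transcription factor genes Gata1 and Klf1 had 0.0251 and 0.277 CPM, and none of these passed the filter. Ahsp was not analysed here. Of 12 platelet genes 3 passed the filter, and none of these 3 passed the test in diestrus against the other stages or males. The platelet genes summed to 5.1 to 6.83 CPM in diestrus, 3.84 to 9.48 CPM in the other stages and 4.93 to 8.53 CPM in males.

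Of 14 neutrophil genes 2 passed, and the granule genes S100a8 and S100a9 had means of 0.393 and 0.317 CPM. The list summed to 3.2 to 7.71 CPM in diestrus, 3.53 to 8.26 in the other stages and 3.84 to 11.5 in males, which overlap over nearly their whole range. Of 14 lymphocyte genes 3 passed. The immunoglobulin heavy chain gene Ighm fell by 0.46 ± 0.12 in diestrus (FDR 0.00129) and by 0.40 ± 0.09 in KO against WT as the mean of 5 conditions (FDR 0.00399), while the B cell gene Cd79a had a mean of 0.268 CPM. The other tested lymphocyte genes, Igkc and Lck, had -0.41 ± 0.51 (FDR 0.522) and -0.14 ± 0.14 (FDR 0.418) in diestrus. In KO against WT they had 0.40 ± 0.37 (FDR 0.631) and -0.12 ± 0.10 (FDR 0.62). Of all genes, 26.9% were lower in diestrus and 1.9% lower in KO. The neutrophil gene Csf3r, a growth factor receptor that microglia also express, fell by 0.46 ± 0.15 in diestrus (FDR 0.0091). The other tested neutrophil gene, Mmp9, had 0.24 ± 0.17 (FDR 0.226). The platelet integrin gene Itgb3 rose by 0.64 ± 0.15 in KO mice (FDR 0.00518), where 1.5% of all genes were higher. Itgb3 had a mean of only 0.981 CPM. The other tested platelet genes, Pf4 and Itga2b, had -0.11 ± 0.17 (FDR 0.806) and 0.15 ± 0.09 (FDR 0.436) in KO against WT.

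Most vessel genes passed the filter, and their counts stand beside 21.4% of all genes higher and 26.9% lower in diestrus. Of 16 endothelial genes 3 rose in diestrus and 1 fell, with a median of 0.10, and the list summed to 98.1 to 176 CPM in diestrus, 79.6 to 182 in the other stages and 91.2 to 191 in males. Ly6a and Ly6c1, surface antigens of brain endothelium, rose by 0.54 ± 0.16 (FDR 0.00464) and 0.51 ± 0.12 (FDR 0.000827), and the glucose transporter gene Slc2a1 fell by 0.32 ± 0.08 (FDR 0.000712). Of 9 mural genes 1 rose and 2 fell, with a median of 0.21. The pericyte gene Rgs5 rose by 0.29 ± 0.07 (FDR 0.00112). The 2 that fell were Cspg4 (-0.58 ± 0.12, FDR 0.000103) and Pdgfrb (-0.32 ± 0.12, FDR 0.0306), so the list had no common direction.

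Lists of other cells in the tissue are given beside the same background, 26.9% of all genes lower and 21.4% higher in diestrus. Of 15 genes of mature oligodendrocytes 13 fell, with a median of -0.68, and the list summed to 3820 to 6890 CPM in diestrus, 4860 to 8830 in the other stages and 5750 to 8120 in males. Of 10 microglial genes 5 fell and 1 rose. Of 8 genes of fibroblasts and meninges 1 fell, with a median of -0.38, and of 11 choroid plexus genes none passed, with a median of 0.45 and sums of 146 to 1340 CPM in diestrus, 120 to 2870 in the other stages and 134 to 2480 in males. Of 3 pituitary genes that passed the filter, Prl and Gh fell by 2.15 ± 0.61 and 1.81 ± 0.73 (FDR 0.00332 and 0.037). These sums were 4.72 to 188 CPM in diestrus, 10.3 to 245 in the other stages and 4.53 to 47.4 in males. Of 12 hippocampal neuron genes 4 rose and 5 fell. The part of these lists in the lower globin level was not tested. Against males, 13 of 15 oligodendrocyte genes, 6 of 10 microglial genes and 1 of 16 endothelial genes were lower in diestrus, where 18.1% of all genes were lower and 10% higher, and for KO against WT no gene of these 3 lists passed.

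**Figure D5:**
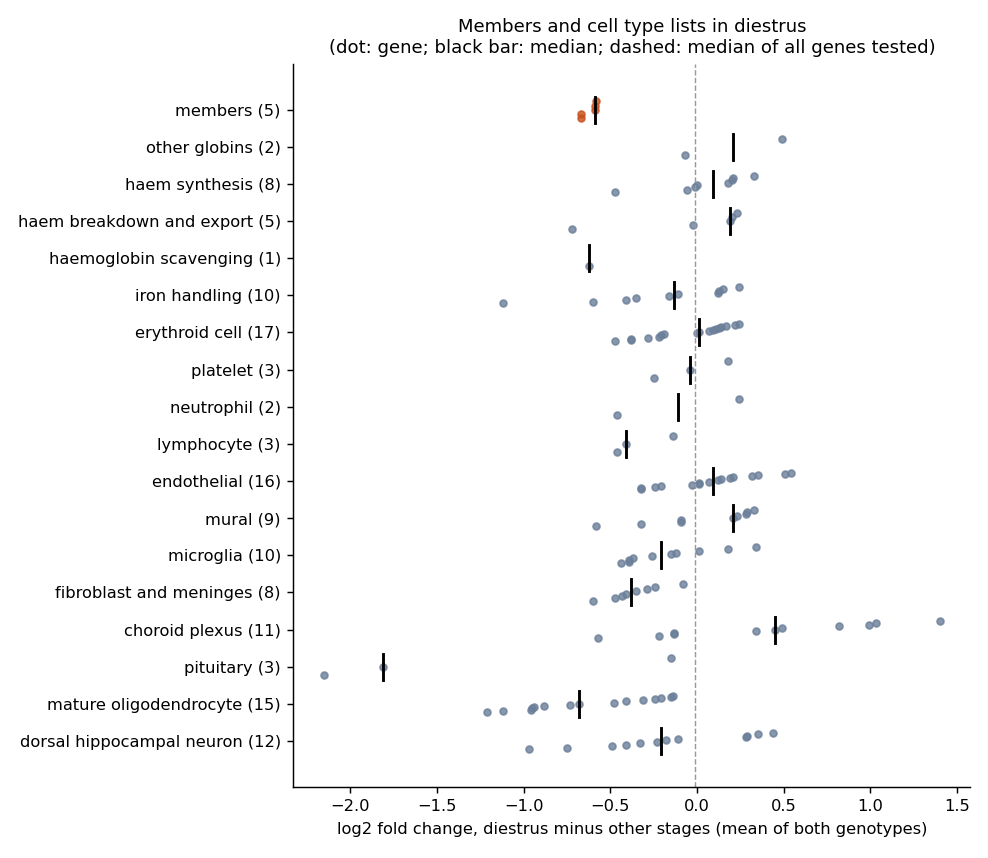
Log2 fold change of each tested gene in diestrus minus the other stages, as the mean of both genotypes (horizontal axis), for the members and each list (vertical axis, number of tested genes in brackets), with the median of a list as a black bar and that of all genes as a dashed line. The members lay at -0.67 to -0.58, the endothelial and mural medians were 0.10 and 0.21, and the oligodendrocyte median was -0.68.

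Hbb-bs was also compared across mice with summary levels of 5 lists and with library total, group means removed. It rose with the mean log2 CPM of the endothelial list (r = 0.358, permutation p = 0.00726, adjusted p = 0.0436, and rho = 0.322, adjusted p = 0.0423), with r = 0.317 without the 2 mice farthest from the median. With group means kept, r was 0.25. For the mural list r was 0.309 (permutation p = 0.0224, adjusted p = 0.0673) and rho 0.311 (adjusted p = 0.0423), with r = 0.251 without 2 mice. The choroid plexus list had r = 0.175 (permutation p = 0.202), the mature oligodendrocyte list r = 0.0605 (p = 0.661) and the neutrophil list, which rests on 2 genes, r = -0.0414 (p = 0.764). With group means kept, the oligodendrocyte list had r = 0.345. Values with group means kept include the lower level in diestrus for which the members were chosen. They are therefore descriptions with no test. For library total r was -0.204 (permutation p = 0.135, adjusted p = 0.269) and rho -0.36 (p = 0.00747, adjusted p = 0.0423), with r = -0.416 without the 2 mice farthest from the median. Most diestrus libraries were above the median total of 53384170 counts, and most libraries of other stages below it. In WT diestrus the smallest libraries, of mice 2_2 (38769215) and 8_1 (46123386), had the highest member shares. In KO diestrus the highest share was that of mouse 2592 (56750196). The part of library size in the diestrus difference was not tested.

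With group means kept, the genes whose levels followed Hbb-bs most closely were the other 3 chain genes (r = 0.986 to 0.99) and Alas2 (r = 0.816). They were ahead of every other of the 16168 genes compared over the 55 mice. With group means removed, Alas2 had r = 0.744. Only 4 genes, Hbb-bs itself included, had r above 0.9. The next was Apod, a lipid carrier, with r = 0.778 (0.715 with group means removed) and a mean log2 CPM of 7.30. It was followed by Isg20 (0.722), an exonuclease gene that is also in the erythroid list, Pnrc1 (0.711), the adiponectin receptor gene Adipor2 (0.688), 1700016K19Rik (0.64), Bhlhe22 (0.632), a transcription factor gene of forebrain neurons, Gm13889 (0.627) and Adrb1 (0.619), which encodes an adrenergic receptor. These correlations are descriptions, and the points share their libraries and groups. The ranking includes the lower level in diestrus for which the members were chosen. It therefore favours genes that are also lower in diestrus, and their diestrus values are no separate evidence. Of these 8 genes, Apod had -0.70 ± 0.14 and Adipor2 -0.60 ± 0.09 in diestrus against the other stages, close to the values of the members, while Bhlhe22 had -0.14 ± 0.07.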

How the data were processed

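Poly-A cDNA made from total RNA of the dorsal hippocampus was sequenced from 55 mice. The authors aligned reads with STAR 2.7.9a to GRCm38 and deposited whole-number counts of uniquely aligned reads per gene (featureCounts 2.0.3), estimated counts per transcript (Salmon 1.5.2) and log2 CPM values. Per the deposited values, 60.1% of counts from 1 to 10 were even, so counting intervals from them would be too narrow and none is given. The kit does not mark strand. Of the lines, 287 repeated a gene and were used once, and 1 column matched no mouse and was left out. Columns of the authors' comparisons were not used.

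Genes over 1 CPM in at least 10 libraries, without 5 ribosomal genes, were fitted in R 4.3.3 with limma 3.58.1 (voom with quality weights, TMM, 10 group means, Benjamini-Hochberg adjustment over 16168 genes), and with edgeR 4.0.16 quasi-likelihood and DESeq2 1.42.0 as alternatives. Other alternatives were another scaling, no filter, transcript counts (13874 genes, rounded), an age term, diestrus mice on either side of 14 weeks each mouse left out and, chosen after seeing the data, a block for mice that share the first part of their number and a fit without quality weights or mouse 548. Permutation tests used SciPy 1.17.1 with 100000 resamples, two-sided, or were exact, and a pseudocount of 0.5 for ratios. Scripts were tested on simulated data. The members and lists were chosen with earlier results of these data known. Named genes were the members, the 8 genes besides them whose log2 CPM correlated best with Hbb-bs, and list genes past the threshold or high in their list. Other list genes, such as the embryonic globins and the defining markers of blood cells, were named after their values were seen. Some list genes are not reported here.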

Additional observations from a re-analysis of the deposited data

Results flagged for a closer look

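On the CPM scale, 8 of 50 groups of 4 to 7 mice (5 genes in 10 groups) held a mouse far from the others by Dixon's test, while chance flags about 1 in 20 groups, and the genes share their mice. WT estrus mouse 3_2 stood above its group for all 5 genes, with 284 CPM of Hba-a1, 188 CPM of Hba-a2, 555 CPM of Hbb-bs, 183 CPM of Hbb-bt and 23.2 CPM of Alas2. KO diestrus mouse 2592 stood above its group with 63.5 CPM of Hba-a2, 182 CPM of Hbb-bs and 47.1 CPM of Hbb-bt. On the log2 scale 1 of the 50 groups held such a mouse, KO metestrus mouse 10_1 for Alas2 (5.26 CPM), and neither mouse 3_2 nor 2592 did.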

How the results depend on the processing

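The median difference of the members between diestrus and the other stages, -0.59, was between -0.60 and -0.51 under edgeR, DESeq2, no quality weights, no filter on low counts, library sizes without the members, transcript counts and an age term. It was -0.72 with only the diestrus mice under 14 weeks and -0.29 with only those of 14 weeks or more. With each mouse left out it ranged from -0.69 (WT diestrus mouse 8_1) to -0.41 (WT diestrus mouse 548), and Hbb-bs ranged from -0.71 to -0.16 in WT mice, with the same mice at the ends, and from -0.73 to -0.53 in KO mice. In the comparisons of females outside diestrus with males, of stage pairs, of KO with WT and of the diestrus difference between genotypes, 0 members passed under the first 7 of these alternatives or with any mouse left out (0 to 0). The splits of the diestrus mice by age were run for the comparisons with diestrus, and there 0 members passed in the difference between genotypes. Between diestrus and the other stages, transcript counts gave a log2 difference of 0.033 for Hba-a1 per Hba-a2, in place of -0.022, and of 0.122 for Hbb-bs per Hbb-bt, in place of 0.066, and the latter then had an unadjusted p under 0.05. With only the diestrus mice under 14 weeks, Alas2 per beta differed by 0.015 in place of -0.047. With each diestrus mouse left out, the ranges were -0.034 to -0.009 for Hba-a1 per Hba-a2, 0.050 to 0.080 for Hbb-bs per Hbb-bt, 0.009 to 0.029 for alpha per beta and -0.101 to -0.011 for Alas2 per beta. The value of 0.080, without KO diestrus mouse 532, also had an unadjusted p under 0.05. With group means kept, Hbb-bs had r = 0.0395 with the neutrophil list in place of -0.0414. The cause of these shifts was not tested. The labels give no number that pairs mice across groups, but 26 mice share the first part of their number with another (8 such parts, meaning not given in the sources used here). With this part as a replicate block, an alternative chosen after seeing the data, the correlation within blocks was -0.00248, the median diestrus difference was -0.59, 0 members passed in the other 4 comparisons, and no call of a member changed. Without quality weights and mouse 548, also chosen after seeing the data, the median was -0.48. Alas2 has the fewest counts of the members, which limits its precision.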
